A study of Mus musculus with 36 samples.

Results

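Kidneys of cadmium-treated ob and b6j animals were compared directly at the low dose of 0.5 mg/kg. The comparison took the 6 kidney libraries labelled ob at 0.5 mg/kg and the 6 labelled b6j at 0.5 mg/kg, 12 of the 36 libraries in the series, and covered all genes. Both groups are of the C57BL/6 strain per the labels. The ob group is ob/ob, that is, homozygous for a defective leptin gene, and the b6j group is the normal counterpart. Both were given CdCl2 at 0.5 mg/kg. The 6 ob and 6 b6j libraries from untreated animals served as the matched genotype comparison without cadmium. The 2 mg/kg groups took no part in the main fit, but entered the choice of genes tested and the scaling of the libraries. The labels give neither age, sex, route nor duration, nor a body or kidney weight, and they number replicates without saying that each is a separate animal, so the p-values measure the spread between these libraries. The ob/ob model lacks leptin in every tissue, so obesity, its hormonal changes and the loss of leptin itself cannot be told apart. Nor can fewer cells of a type and less RNA per cell in these bulk kidneys.

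Cadmium taken up by the kidney gathers in the cells of the proximal tubule. There it is bound by metallothioneins, small cysteine-rich proteins whose genes are switched on by the metal-sensing factor MTF1. Unbound metal depletes glutathione and activates NRF2, the factor that raises glutathione synthesis, glutathione transferases, quinone reductases and heme oxygenase. The mouse kidney is also strongly sexually dimorphic: androgen and growth hormone set the level of many transporters and cytochrome P450 enzymes of the proximal tubule.

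The 12 libraries held 28693083 to 36710100 counted reads, and 7.21% to 10.2% of them were from mitochondrial genes. Levels are CPM, read counts relative to the size of the library times a scaling factor (TMM). This factor was 0.893 to 1.005 in the 12 libraries. Before that factor 3 counts were worth 0.0817 to 0.105 CPM. The first principal component of the 12 libraries held 31.3% of the variance and separated the genotypes, with ob libraries between -25.58 and -14.34 and b6j libraries between 16.01 and 24.63. Along the second, with 13.8%, b6j replicate 6 stood at 33.41 and the next library, ob replicate 3, at 18.65. Values without b6j replicate 6 are given for the counts over all genes and for the lists whose counts it moved most. Proximal tubule markers summed to 32320 to 36470 CPM in ob and 33770 to 40720 CPM in b6j. The adrenal markers Cyp11b1, Cyp11b2, Nr5a1, Th and Dbh were below 0.105 CPM in all 12. Among the untreated libraries, b6j replicate 4 had Havcr1, the kidney injury marker KIM-1, at 180.5 CPM against 2.15 to 13 CPM in the other 5.

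At 0.5 mg/kg glutathione transferases, glucuronosyltransferases, metallothioneins and heme oxygenase were among the genes higher in ob kidneys. Several proximal tubule transporters, genes known to be higher in male kidney, some sterol synthesis genes and some chaperones were among those lower. In all, 3535 of 18180 genes tested (19.4%) differed at an adjusted p below 0.05 in edgeR's quasi-likelihood test, adjusted by the Benjamini-Hochberg method: 1664 were higher in ob (9.15%) and 1871 lower (10.3%). More than 2-fold differences were found for 438 genes (2.41%), 288 higher (1.58%) and 150 lower (0.825%) in ob. The median size of a called difference was 0.36 on the log2 scale, and the median over all genes was 0.02. In 1624 genes (8.93%) the groups did not overlap, with all 6 ob libraries above every b6j library for 772 (4.25%) and below for 852 (4.69%). Without b6j replicate 6 the count was 3698, with 1745 higher and 1953 lower, and 3143 genes were called both with and without it. Scaling by library size alone moved the balance, to 2121 higher and 1392 lower of 3513. Fitting all 36 libraries together, in which 1 library at 2 mg/kg stands far apart, gave 1753 genes, and the same fit without that library 3457.

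**Figure D1:**
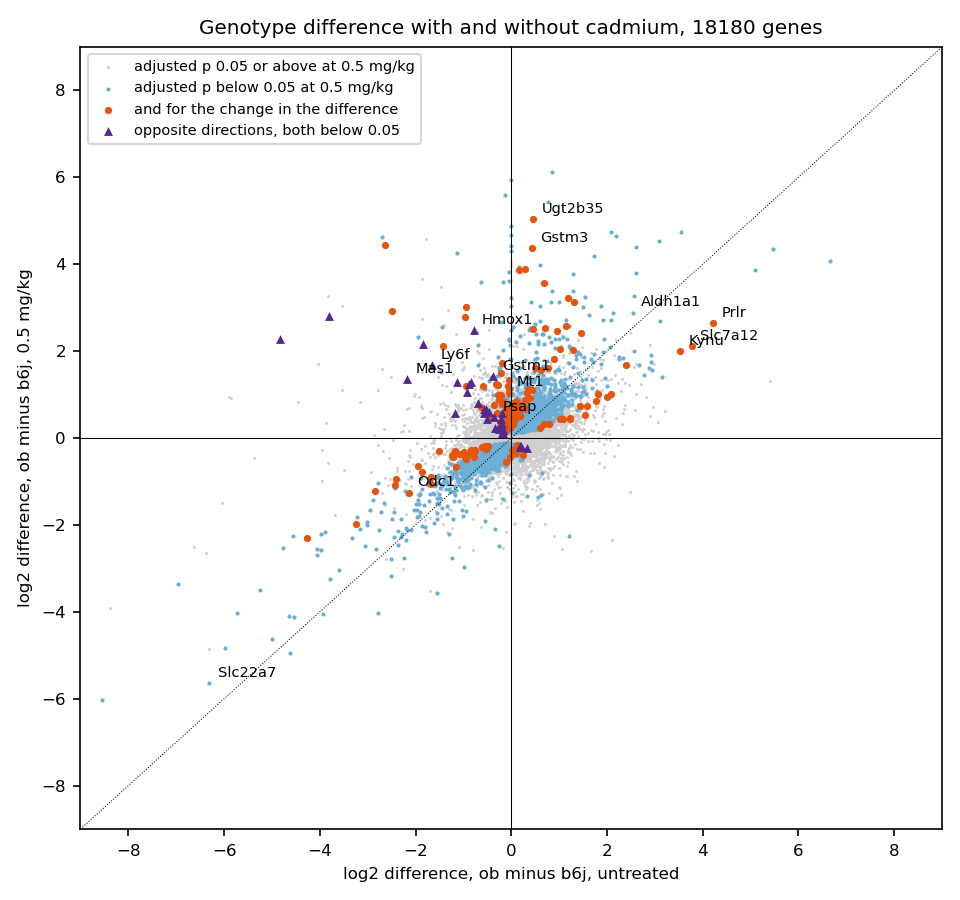
Log2 difference between ob and b6j kidneys at 0.5 mg/kg (vertical axis) against the same difference in untreated kidneys (horizontal axis), 1 point per gene for 18180 genes, with the dotted line marking equal differences. Colours mark genes called at 0.5 mg/kg, those for which the change in the difference was called as well, and the 34 called in opposite directions, 30 of which lie above the horizontal zero line.

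Both metallothionein genes tested by name, Mt1 and Mt2, were higher in ob. They are neighbours on chromosome 8 of GRCm38, Mt1 from 94179082 to 94180327 and Mt2 from 94172664 to 94173568. Their promoters are shown because MTF1 acts through a short metal response element, searched here as its core TGCNCNC on both strands and set in capitals. The windows are 300 bases around the RefSeq transcription start on GRCm38.p6, plus strand, chr8:94178839-94179138 for Mt1 and chr8:94172368-94172667 for Mt2.
Mt1: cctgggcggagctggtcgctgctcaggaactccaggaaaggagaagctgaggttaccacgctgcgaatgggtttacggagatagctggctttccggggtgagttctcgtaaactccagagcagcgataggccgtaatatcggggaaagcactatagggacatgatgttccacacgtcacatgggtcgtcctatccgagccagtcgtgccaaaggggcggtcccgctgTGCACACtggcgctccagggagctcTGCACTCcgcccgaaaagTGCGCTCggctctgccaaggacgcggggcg
Mt2: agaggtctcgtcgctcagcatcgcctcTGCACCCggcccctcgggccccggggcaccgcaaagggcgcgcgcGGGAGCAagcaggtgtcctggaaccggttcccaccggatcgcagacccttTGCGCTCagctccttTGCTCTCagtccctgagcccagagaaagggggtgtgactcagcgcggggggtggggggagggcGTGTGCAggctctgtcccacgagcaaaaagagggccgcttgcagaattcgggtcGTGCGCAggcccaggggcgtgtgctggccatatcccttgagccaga
The Mt1 window held 3 matches, all on the printed strand, and the Mt2 window 6, of which 3 were on the printed strand. Such a core is common: 51% of 32851 promoter windows of the same length held at least 1, so a match describes the letters and not a bound site.

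Mt1 read 2025, 2927 and 3204 CPM (lowest, median and highest) in the ob libraries and 1150, 1329 and 1822 CPM in the b6j libraries. No ob library fell into the b6j range. The mean of 2822 ± 408 CPM (SD, n = 6) in ob was 2.06 times that of b6j, 1369 ± 253 CPM, a log2 difference of 1.04 ± 0.12 (SE, adjusted p = 5.94e-07, edgeR). Untreated kidneys stood at 111 and 116 CPM and were not called apart (-0.06, adjusted p = 0.792), and the widening of the gap with cadmium passed the test (1.10 ± 0.18, adjusted p = 0.000532, edgeR). The ob mean of Mt2 was 16.1 ± 4.04 CPM against 7.14 ± 1.36 CPM for b6j, with 5 of 6 ob libraries above every b6j library (log2 1.17 ± 0.21, adjusted p = 0.000224, edgeR). Its widening was of the same size, 1.06 ± 0.40, and was not called (adjusted p = 0.199). Exons of an antisense gene cover 73.5% of the exon bases of Mt2, and the counting ignored strand, so reads of the shared bases cannot be told apart between them.

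Other carriers and stores of metal moved both ways. Of 23 metal-handling genes tested, 5 were higher and 6 lower in ob, with a median of -0.04. Without b6j replicate 6 these counts were 7 and 4, and with scaling by library size alone 7 and 2. Ferroportin Slc40a1, the iron exporter, was at 85.2 ± 6.31 against 50.5 ± 8 CPM (0.75 ± 0.10). The zinc carrier Slc39a5 was at 75.9 ± 6.41 against 52.6 ± 6.39 CPM (0.53 ± 0.09), without overlap of the groups. Transferrin Trf was low, at 2.41 ± 0.661 and 0.566 ± 0.188 CPM (2.07 ± 0.26), and 63.5% of its exon bases are shared with an antisense gene. The lower genes included Slc39a14 (-0.55) and Slc39a8 (-0.43), importers of zinc, manganese and cadmium, Slc39a10 (-0.39) and the zinc exporter Slc30a1 (-0.51). Slc30a1 was scarce, at 2.05 and 2.92 CPM. MTF1's own gene, Mtf1, differed by -0.09 and was not called.

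Heme oxygenase 1, which opens the heme ring and is raised by NRF2 and by heme, showed one of the sharpest separations. Hmox1 (chromosome 8, 75093621 to 75100589) read 507, 665 and 727 CPM (lowest, median and highest) in ob and 102, 117 and 135 CPM in b6j. The lowest ob library was thus far above the highest b6j library. Its log2 difference was 2.49 ± 0.13, or 5.6-fold (adjusted p = 4.72e-14, edgeR, n = 6 and 6). Untreated, the order was the reverse, 26.5 CPM for ob against 45.7 CPM for b6j (-0.78, adjusted p = 2.57e-05), and the change in the difference was 3.27 ± 0.18 (adjusted p = 1.23e-12). Of the 15 heme genes tested, 3 were higher and 2 lower. Blvrb, a biliverdin reductase acting after heme oxygenase, was at 50.1 ± 6.03 against 27.7 ± 4.61 CPM (0.85 ± 0.10), and the heme carrier Slc48a1 at 217 ± 11 against 190 ± 8.08 CPM (0.19 ± 0.04). The heme synthesis enzymes Cpox and Uros were lower, with log2 differences of -0.36 ± 0.07 and -0.28 ± 0.08, the latter not called without b6j replicate 2 (-0.22, adjusted p = 0.0565).

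Glutathione transferases, which join glutathione to reactive compounds, were higher in ob for 14 of 23 genes tested and lower for 1, Gstz1 (-0.24). Their median log2 difference was 0.61, and in 11 of the 23 every ob library exceeded every b6j library. In untreated kidneys 12 of the 23 were already higher in ob and 1 lower, with a median of 0.38. An upward change in the difference with cadmium was called for 5. Gstm1, from 108012255 to 108017973 on chromosome 3, read 1827, 2218 and 2672 CPM (lowest, median and highest) in ob and 697, 828 and 950 CPM in b6j. The groups were well apart, with a log2 difference of 1.42 ± 0.09 (adjusted p = 1.01e-11, edgeR). In untreated kidneys Gstm1 was lower in ob, at 505 against 653 CPM (-0.37, adjusted p = 0.00299). Gstm3 read 16.5, 24.3 and 33.8 CPM in ob and 0.864, 1.08 and 2.16 CPM in b6j, 20.8-fold apart (log2 4.38 ± 0.23), from untreated levels of 0.271 and 0.203 CPM that are close to the detection floor. Gsta4, which clears lipid aldehydes such as hydroxynonenal, stood at 288 ± 42.9 and 53.8 ± 13.3 CPM (2.42 ± 0.14). Gsta2 was at 954 ± 72.8 and 271 ± 73.7 CPM (1.82 ± 0.13), and the membrane-bound Mgst1 at 192 ± 17.9 and 86.1 ± 4.87 CPM (1.15 ± 0.07). Gsta4, Gsta2 and Mgst1 were also higher in ob without cadmium. Untreated Gsta4 read 46.5 to 71.62 CPM in ob and 16.89 to 25.27 CPM in b6j. Untreated Gsta2 read 386.6 to 482.1 CPM in ob and 109.8 to 175 CPM in b6j. Untreated Mgst1 read 142.1 to 180.6 CPM in ob and 65.93 to 85.32 CPM in b6j.

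Gsta1 read 27.6, 43.3 and 86.6 CPM in ob and 1.55, 2.5 and 7.59 CPM in b6j (3.89 ± 0.47). It has close copies beside it on chromosome 9, among them Gsta2 and the predicted genes Gm3776 (3.87 ± 0.52) and Gm10639 (3.27 ± 0.24), so the split of reads between them is uncertain. The widening of the Gsta1 gap with cadmium was called (3.61 ± 0.77, adjusted p = 0.0104, edgeR), but not without untreated b6j replicate 4 (1.87, adjusted p = 0.205).

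Glucuronosyltransferases, which attach glucuronic acid to bilirubin, steroids and drugs, included Ugt2b35, the called gene with the largest fold in favour of ob among those of at least 5 CPM. It read 20.1, 34.2 and 53.3 CPM (lowest, median and highest) in ob and 0.82, 0.954 and 1.79 CPM in b6j. The groups were 32.7-fold apart (log2 5.03 ± 0.26, adjusted p = 4.72e-14, edgeR), while untreated kidneys of both genotypes held at most 0.443 CPM in every library. Of 18 members tested 11 were higher and 3 lower, and the median was 0.93. Untreated, 7 were higher and 3 lower, with a median of 0.36. Ugt2b34 stood at 190 ± 43.1 and 32 ± 4.04 CPM (2.57 ± 0.12) and Ugt2b5 at 76.6 ± 26.8 and 8.25 ± 1.62 CPM (3.21 ± 0.21). For both the gap was wider than without cadmium, by 1.43 ± 0.17 and 2.02 ± 0.30. Ugt1a2 (52.2 against 3.04 CPM, 4.08 ± 0.46) and Ugt1a10 (23.4 against 1.56 CPM, 3.88 ± 0.32) share 59.3% and 64.3% of their exon bases with other genes of the Ugt1a locus, so their counts rest on the exons they do not share. Their gap was already present without cadmium (6.67 and 5.09). The 3 lower members were Ugt2b38 (-0.70), Ugt3a1 (-0.48) and Ugt3a2 (-0.28).

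Carboxylesterases, which cleave ester drugs and lipids, were higher for 9 of 16 tested and lower for 3, with a median of 0.68. Untreated, 4 were higher and 4 lower, with a median of 0.12. Ces2e was at 130 ± 10.9 against 31.1 ± 5.56 CPM (2.06 ± 0.12) and Ces2g at 28.4 ± 2.75 against 10.8 ± 1.98 CPM, 2.64-fold apart. Ces1g, at 171 against 92.8 CPM, differed by 0.88. Scarce members, at or below 2.07 CPM in every ob library, were Ces1a (1.02 ± 0.39 and 0.0488 ± 0.0209 CPM), Ces1b (0.992 ± 0.349 and 0.104 ± 0.0871 CPM) and Ces1h (1.55 ± 0.412 and 0.294 ± 0.0727 CPM). The b6j mean of Ces1a is under the value of 3 counts, so its size is not read. Lower in ob were Ces2h (-1.09), Ces2b (-1.07) and Ces1f (-0.34).

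The wider list of NRF2 targets was less uniform. Of 26 tested, 11 were higher and 2 lower, with a median of 0.18, against 6 higher and 10 lower in untreated kidneys, where the median was -0.10. Without b6j replicate 6, 13 were higher and 2 lower. Carbonyl reductases, which reduce quinones, led it. Cbr1 read 180, 225 and 255 CPM (lowest, median and highest) in ob and 44.9, 52.2 and 65.4 CPM in b6j, 4.08-fold apart (2.03 ± 0.09, adjusted p = 9.32e-15, edgeR). Cbr3 was at 36.7 ± 4.9 and 4.18 ± 1.08 CPM (3.13 ± 0.16). Microsomal epoxide hydrolase Ephx1 differed by 1.56 ± 0.14, the exporter Abcc4 by 1.86 ± 0.12 and the quinone reductase Nqo1 by 0.87 ± 0.09. Cbr1, Cbr3, Abcc4 and Nqo1 were already higher in ob without cadmium, while the untreated Ephx1 groups overlapped. Untreated Cbr1 read 87.5 to 109.3 CPM in ob and 35.91 to 46.23 CPM in b6j. Untreated Cbr3 read 4.43 to 8.698 CPM in ob and 1.778 to 2.902 CPM in b6j. Untreated Abcc4 read 194.5 to 265 CPM in ob and 35.04 to 66.57 CPM in b6j. Untreated Nqo1 read 104.4 to 128.7 CPM in ob and 60.06 to 84.85 CPM in b6j. Thioredoxin reductase Txnrd1 (0.59), sulfiredoxin Srxn1 (0.53) and glutathione reductase Gsr (0.42) were higher as well. The glutathione synthesis genes Gclc (0.25), Gclm (-0.14) and Gss (-0.03) were not called, and the glutathione-splitting enzyme Ggt1 was lower (-0.48), as was malic enzyme Me1 (-0.44).

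Outside these lists, aldehyde dehydrogenase Aldh1a1, which makes retinoic acid and clears aldehydes, read 133, 172 and 216 CPM (lowest, median and highest) in ob and 19.9, 23.5 and 26.5 CPM in b6j. Its difference of 2.89 ± 0.11 (adjusted p = 8.09e-17, edgeR) was of similar size without cadmium (2.54). Among called genes of the highest CPM, which is not adjusted for length, the glutathione peroxidases Gpx3 (30152 ± 3865 against 23431 ± 3850 CPM, 0.36 ± 0.09) and Gpx1 (3002 ± 156 against 2469 ± 245 CPM, 0.28 ± 0.06) were higher in ob. The mitochondrial gene mt-Nd1 (0.29 ± 0.07) was higher too. Of the 13 protein-coding mitochondrial genes, mt-Nd1 was the only one called.

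**Figure D2:**
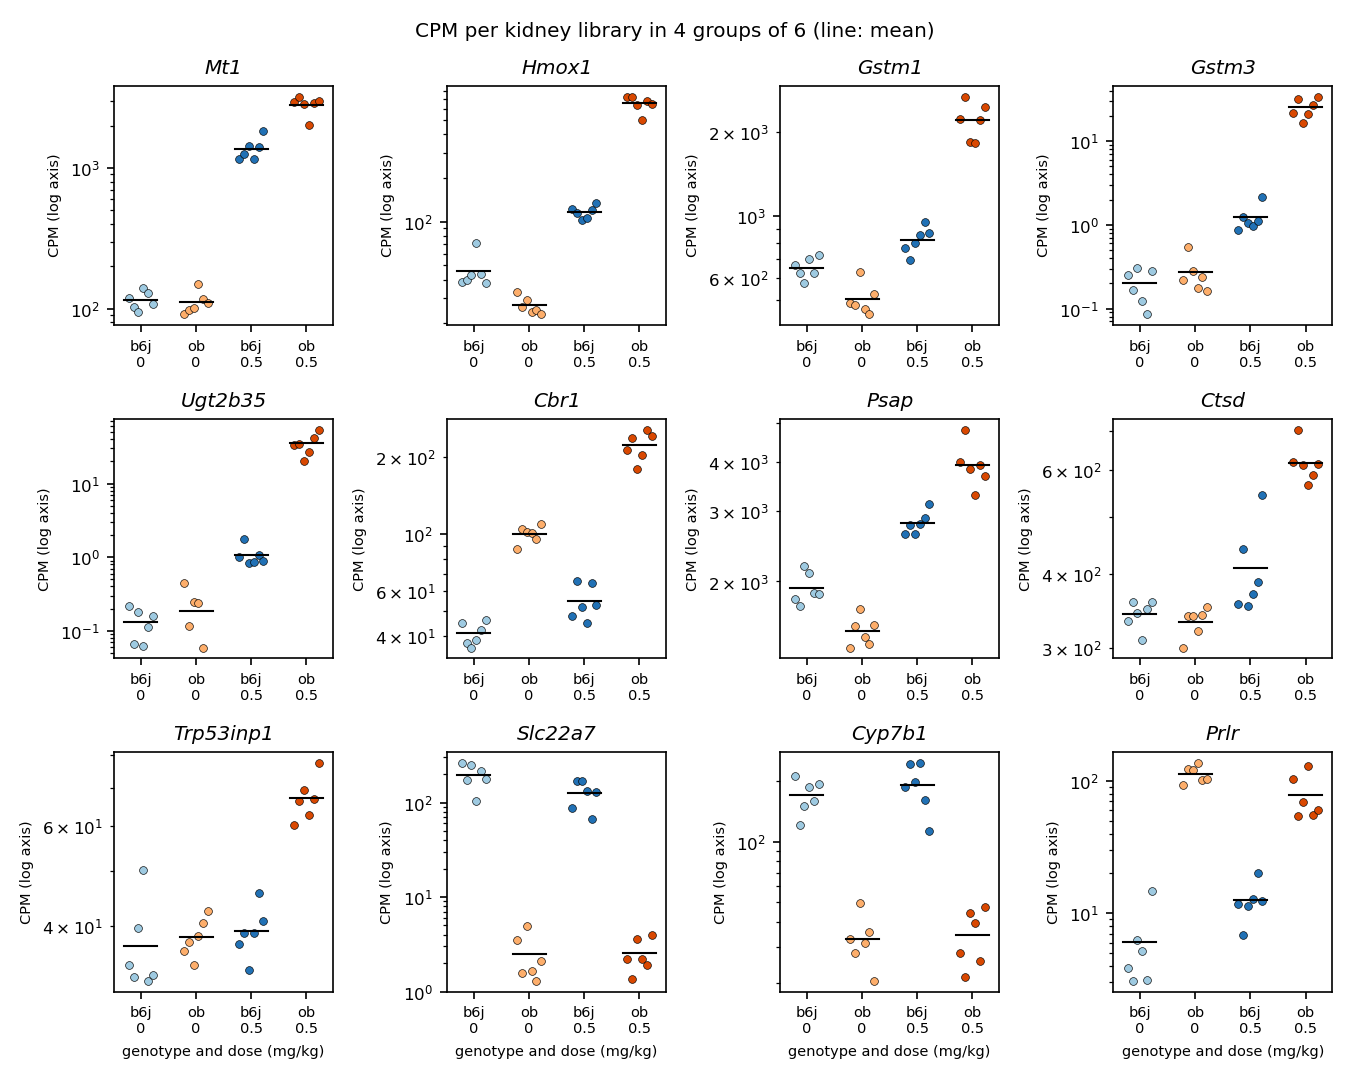
CPM on log axes of 12 genes in each library of 4 groups (b6j and ob, untreated and at 0.5 mg/kg), with lines at the group means. The single untreated ob library with no Ugt2b35 read is not drawn, and the ob libraries at 0.5 mg/kg stand above every b6j library at that dose for the first 9 genes and for Prlr, and below for Slc22a7 and Cyp7b1.

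Lysosomal genes, whose products break down material taken up by the tubule, were higher in ob for 12 of 28 tested and lower for 1. The median was 0.14. Prosaposin Psap (chromosome 10, 60277627 to 60302597) read 3306, 3873 and 4802 CPM in ob and 2630, 2784 and 3132 CPM in b6j. The difference was small but without overlap (0.48 ± 0.07, adjusted p = 2.54e-05, edgeR), and it was the reverse of that in untreated kidneys, at 1501 and 1927 CPM (-0.36, adjusted p = 0.000525). The cathepsins, lysosomal proteases, followed: Ctsd at 617 ± 46.1 against 409 ± 74.2 CPM (0.59 ± 0.08), Ctsl at 696 ± 29.6 against 520 ± 59.1 CPM (0.42 ± 0.06) and Ctsz (0.39 ± 0.08). Exons of overlapping genes cover 34.4% of Ctsd and 26.8% of Ctsl. The cholesterol carrier Npc2 differed by 0.28 ± 0.05. For 10 of the 28 the genotype difference was shifted upward by cadmium, and downward for 1, with 1.46% and 0.347% of all genes called in these directions.

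Targets of p53, the factor that halts the cell cycle after damage, were higher for 8 of 16 tested and lower for none, and 7 were higher without b6j replicate 6. The cell cycle inhibitor Cdkn1a read 11.3, 17.8 and 22.7 CPM in ob and 3.46, 5.48 and 7.79 CPM in b6j (1.55 ± 0.29, adjusted p = 0.000251, edgeR). Trp53inp1 was at 67.2 ± 5.96 against 39.2 ± 4.02 CPM (0.78 ± 0.09), Ccng1 at 271 ± 48.5 against 185 ± 23.5 CPM (0.55 ± 0.10), the death-promoting Bax at 32.7 ± 1.68 against 23.6 ± 3.64 CPM (0.47 ± 0.08) and Phlda3 at 13.2 ± 1.94 against 8.37 ± 0.903 CPM (0.66 ± 0.11). The receptor gene Eda2r was scarce, at 3.49 ± 0.839 and 0.607 ± 0.237 CPM (2.51 ± 0.24). Untreated kidneys had 2 of these 16 genes higher and 5 lower.

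The tubular injury markers Havcr1 and Lcn2 were not called apart at 0.5 mg/kg. Havcr1 read 7.37, 13.9 and 27.3 CPM in ob and 8.2, 17.1 and 48.5 CPM in b6j, and the groups overlapped (-0.46 ± 0.72, adjusted p = 0.728, edgeR). Untreated, Havcr1 was called lower in ob (-5.38, adjusted p = 9.74e-05, edgeR), an estimate that includes b6j replicate 4 at 180.5 CPM. Untreated ob libraries read 0.515 to 1.17 CPM, and every untreated b6j library read 2.15 CPM or more. Lcn2, the gene of the urinary injury marker NGAL, read 4.67 to 7.25 CPM in ob and 3.2 to 7.71 CPM in b6j (-0.10 ± 0.18, adjusted p = 0.771). Of 19 injury genes tested 3 were higher in ob, Cdkn1a, the stress cytokine Gdf15 (33.9 ± 4.57 against 16.2 ± 3.29 CPM, 1.06 ± 0.22) and osteopontin Spp1 (1050 ± 122 against 720 ± 181 CPM, 0.54 ± 0.12). Vimentin Vim was lower (-0.23 ± 0.08, adjusted p = 0.0441), a call that ended under 9 of the 24 single-library omissions. The list thus held 3 higher and 1 lower of 19, where 9.15% and 10.3% of all genes were called. Untreated, 3 of the 19 were higher and 2 lower. The Spp1 groups overlapped, with 2 of 6 ob libraries above every b6j library. Untreated Spp1 was already higher in ob, at 700.3 to 1007 CPM against 381.6 to 523.4 CPM in b6j. Untreated Gdf15 was lower in ob (-0.91).

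A list of genes known for higher expression in male mouse kidney was mostly lower in ob. Of 13 tested, 12 were called lower, all 12 without overlap of the groups, and the median was -1.06. The gap was there without cadmium: 12 were called lower in untreated ob kidneys, with a median of -1.18. An upward change in the difference was called for 2 of the 13. Cyp7b1, a steroid hydroxylase, read 21.3, 33.6 and 47.5 CPM (lowest, median and highest) in ob and 113, 191 and 244 CPM in b6j (-2.47 ± 0.21, adjusted p = 1.35e-09, edgeR). Acsm3 was at 83.8 ± 28.9 against 490 ± 98.3 CPM (-2.55 ± 0.19), with 39.7% of its exon bases shared with the gene Eri2. Ornithine decarboxylase Odc1, the first enzyme of polyamine synthesis, was at 621 ± 205 against 1483 ± 236 CPM (-1.26 ± 0.15). Cyp4b1 stood at 2553 ± 672 against 5328 ± 911 CPM (-1.06 ± 0.14), and the androgen-regulated protein gene Kap at 11570 ± 2251 against 23341 ± 2106 CPM (-1.01 ± 0.13). Cyp4a12a differed by -1.99 ± 0.23 and has a near copy, Cyp4a12b, which was not called (-0.25).

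The 3 genes listed as higher in female kidney were all higher in ob. The prolactin receptor Prlr read 54.2, 64.7 and 129 CPM in ob and 6.9, 12.1 and 20.2 CPM in b6j, 6.22-fold apart (2.64 ± 0.28, adjusted p = 1.15e-07, edgeR). The amino acid transporter Slc7a12 differed by 2.12 ± 0.28 and Cyp4a14, a fatty acid hydroxylase raised by PPAR alpha, by 1.58 ± 0.46. Both Prlr and Slc7a12 were further apart without cadmium (4.22 and 3.78), and the narrowing was called at -1.59 ± 0.40 (adjusted p = 0.0337) and -1.66 ± 0.40 (adjusted p = 0.0252). Leaving out any of 14 single libraries ended the call for Prlr, and any of 3 that for Slc7a12.

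Of the 21 hormone genes tested, 4 were higher and 4 lower in ob, with a median of -0.07. The growth hormone receptor gene Ghr was at 530 ± 84 against 857 ± 91.8 CPM (-0.69 ± 0.11) without overlap. The feedback inhibitors Cish (-1.76 ± 0.39) and Socs2 (-1.09) were lower, with b6j libraries of Cish spread from 6.48 to 48.4 CPM and not called by limma-voom with sample weights (-1.24, adjusted p = 0.106). Igfbp3 was higher (0.79 ± 0.10). The leptin receptor gene Lepr was not called, at 9.48 ± 2.21 and 11.2 ± 3.92 CPM (-0.24 ± 0.21, adjusted p = 0.48, edgeR). The Lep transcript was at 0, 1.44 and 14.1 CPM (lowest, median and highest) in ob and at or below 0.275 CPM in b6j. Its call (4.35 ± 1.06, adjusted p = 0.00372) was lost without ob replicate 2 (2.51, adjusted p = 0.0601) and with limma-voom (1.92, adjusted p = 0.59). That library also had the highest sum of 12 fat markers, 347.8 CPM against 138.3 to 219.2 CPM in the other 5 ob libraries. The b6j library with the highest fat sum, replicate 4 at 336.7 CPM, had Lep at 0.192 CPM. Untreated, Lep was called higher in ob (5.47, adjusted p = 0.000743, edgeR), at 0.0591 to 7.93 CPM against at most 0.188 CPM in b6j. Untreated ob replicate 5 was lowest in ob for both Lep and the fat sum (67.51 CPM). The part of attached fat in the Lep level was not tested.

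Carriers of organic anions and cations, which move drugs and metabolites across the proximal tubule, were divided, with 11 higher and 13 lower of 32 tested. The lower set was led by Slc22a7, the transporter OAT2. It read 1.36, 2.2 and 3.96 CPM (lowest, median and highest) in ob and 67.5, 130 and 170 CPM in b6j, a 49.9-fold gap (-5.64 ± 0.31, adjusted p = 1.81e-13, edgeR) that was as large without cadmium (-6.31). Slc22a26 (-2.79 ± 0.21), Slc22a19 (-2.11 ± 0.22), Slco1a1 (-1.94) and Slco3a1 (-0.69 ± 0.09) were lower with it, as were Slc22a6 (-0.48), the main basolateral anion exchanger, and Slc22a12 (-0.48), the urate reabsorber. The higher set held exporters: Abcc4, Abcc3 (1.02), Abcb1b (1.01 ± 0.17), Abcb1a (0.73 ± 0.15), Abcc2 (0.69) and Abcg2 (0.38). Slc22a8, another basolateral anion exchanger, was also higher (0.39).

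Other genes far lower in ob were the steroid-reducing enzyme Akr1c18 (0.678 ± 0.324 against 11.8 ± 6.36 CPM, -4.12 ± 0.37), the complement-like C4a (-3.04 ± 0.35), which has a near copy, the mucosal chemokine Ccl28 (2.04 ± 0.872 against 12.2 ± 3.12 CPM, -2.58 ± 0.29), the lysolipid transporter Mfsd2a (-2.49 ± 0.32) and Prok1 (-2.27 ± 0.27), which shares 35.4% of its exon bases with another gene. All 5 were separated without overlap, and all 5 were lower by similar or larger amounts in untreated ob kidneys (-4.55, -3.59, -3.98, -3.05 and -2.46). The predicted gene Gm6300 had the largest gap among called genes of at least 5 CPM (-6.02 ± 0.41). Abundant tubule genes lower in ob were Acsm2 (3083 ± 506 against 5188 ± 430 CPM, -0.75 ± 0.09) and the phosphate carrier Slc34a1 (-0.27 ± 0.07).

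Part of the sterol synthesis and chaperone genes were lower in ob. Of 25 sterol genes tested, 10 were lower and none was higher, with a median of -0.27, and 12 were lower without b6j replicate 6. In untreated kidneys more of them, 17, were lower and none was higher, with a median of -0.39. The isomerase gene Idi1 read 9.13, 11.9 and 13.6 CPM (lowest, median and highest) in ob and 16.5, 33.1 and 36.4 CPM in b6j, without overlap (-1.37 ± 0.17, adjusted p = 1.55e-06, edgeR). Cyp51 (-1.11 ± 0.16), Dhcr7 (-0.57 ± 0.10) and Mvd (-0.47 ± 0.06) followed. Of 16 heat shock genes 9 were lower and none was higher, with a median of -0.35. Untreated, 9 were lower as well, with a median of -0.28. Hsph1 stood at 145 ± 10.7 against 237 ± 24.2 CPM (-0.71 ± 0.07), Hsp90ab1 at 1020 ± 88.7 against 1496 ± 167 CPM (-0.55 ± 0.07) and the co-chaperone Stip1 at 79.5 ± 4.09 against 114 ± 7.31 CPM (-0.51 ± 0.05). Genes of protein folding in the endoplasmic reticulum were lower for 11 of 23 and higher for 2, Ddit3 (0.58) and Dnajb9 (0.25). Their median was -0.21. Without cadmium 12 were lower and 1 higher, with a median of -0.29. The chaperone Hspa5 was at 469 ± 38.9 against 647 ± 41.3 CPM (-0.46 ± 0.08), Hyou1 at -0.53 ± 0.08 and the transcription factor Xbp1 at -0.60 ± 0.12.

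**Figure D3:**
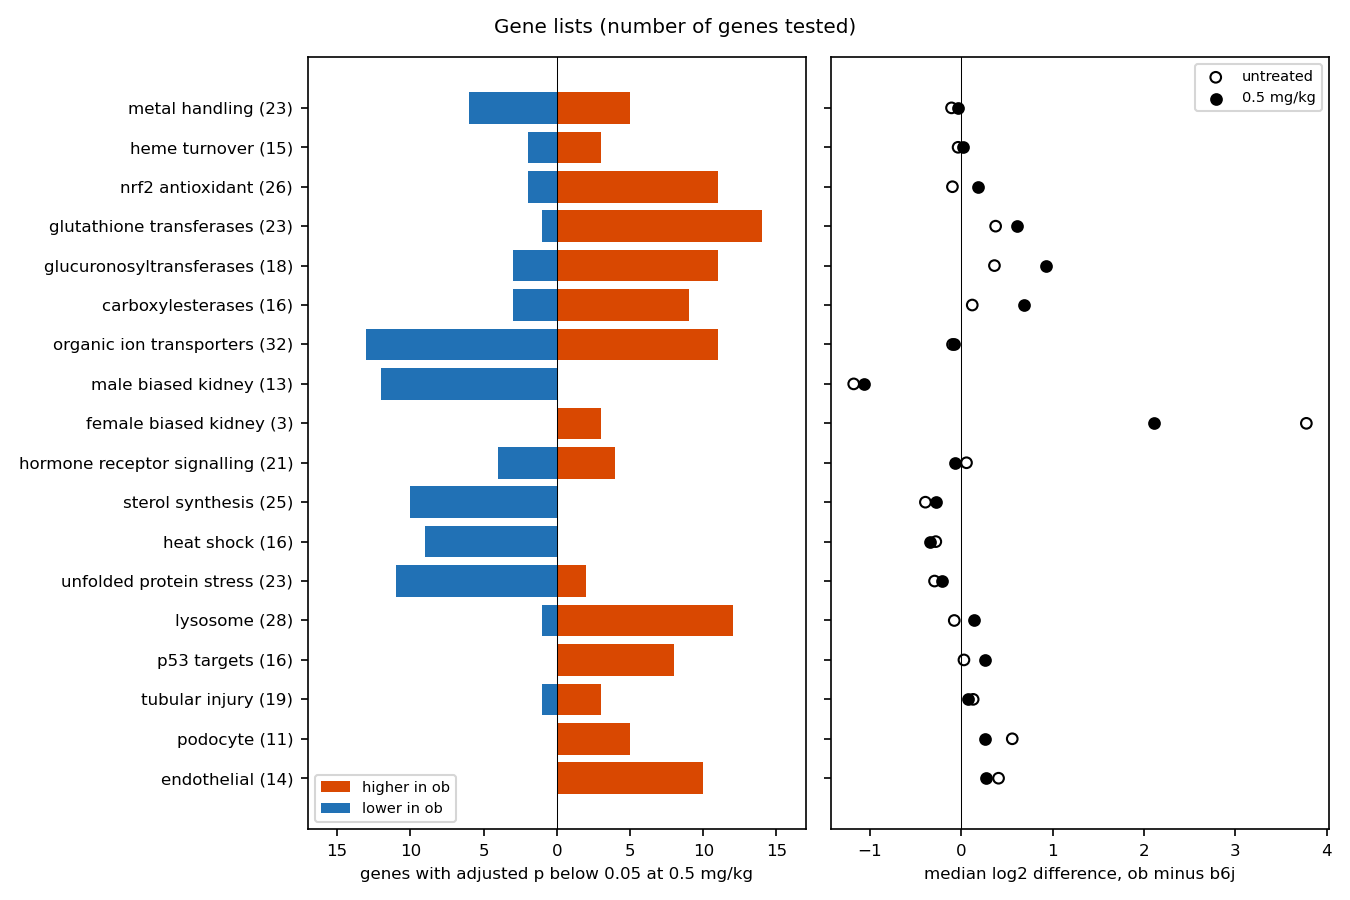
For each of 18 gene lists, with the number of genes tested in brackets, the left panel shows how many genes were called higher (right of 0) or lower (left of 0) in ob at 0.5 mg/kg, and the right panel the median log2 difference at 0.5 mg/kg (filled) and in untreated kidneys (open). Against a background of 9.15% and 10.3% of all genes, glutathione transferases reach 14 of 23 higher and the male-biased genes 12 of 13 lower.

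Summed podocyte and endothelial markers were higher in ob, and the other marker sums given here overlapped. Behind the overlapping proximal tubule sum, single markers differed both ways: of 20 tested, 5 were called higher and 7 lower in ob. Untreated, 7 of the 20 were higher and 6 lower. Podocyte markers, 11 genes of the filtering cells, summed to 437.8 to 483.7 CPM in ob and 373.5 to 411 CPM in b6j. Of the 11, 5 were called higher, among them Nphs1 (0.44 ± 0.10), Podxl (0.30 ± 0.06), Cdkn1c (0.58 ± 0.10) and Ptpro (0.30 ± 0.09). The Ptpro call ended without b6j replicate 6 (0.23, adjusted p = 0.0591), b6j replicate 3 (0.27, adjusted p = 0.0545) or ob replicate 6 (0.24, adjusted p = 0.0698). Endothelial markers summed to 778.7 to 928.5 CPM and 681.6 to 731 CPM, with 10 of 14 called higher, among them Kdr (0.45 ± 0.08), Plvap (0.35 ± 0.07), Eng (0.34 ± 0.07), Pecam1 (0.36 ± 0.08) and Tie1 (0.26 ± 0.06). Both sums were without overlap. Without b6j replicate 6, 4 podocyte and 8 endothelial genes were called. Distal nephron and collecting duct markers summed to 5335 to 6820 and 4901 to 7187 CPM, with 1 of 18 called, lower. Mesangial markers overlapped, at 259.1 to 302.7 and 233.9 to 265.6 CPM, with 4 of 11 called higher. Macrophage and lymphocyte markers, at 382.6 to 527.9 and 410.9 to 533 CPM, overlapped as well, and fat markers reached 347.8 and 336.7 CPM. Red blood cell markers, at 287.4 to 567.9 and 387.5 to 661.9 CPM, overlapped too. The podocyte gap had been wider in untreated kidneys, 514.8 to 570.6 CPM in ob and 325 to 402.5 CPM in b6j. Endothelial sums were also apart without cadmium, 898.5 to 1019 CPM in ob and 579 to 776.1 CPM in b6j. Of the 14 endothelial genes, 11 were called higher untreated. The part of cell composition in the differences of other genes was not tested.

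**Figure D4:**
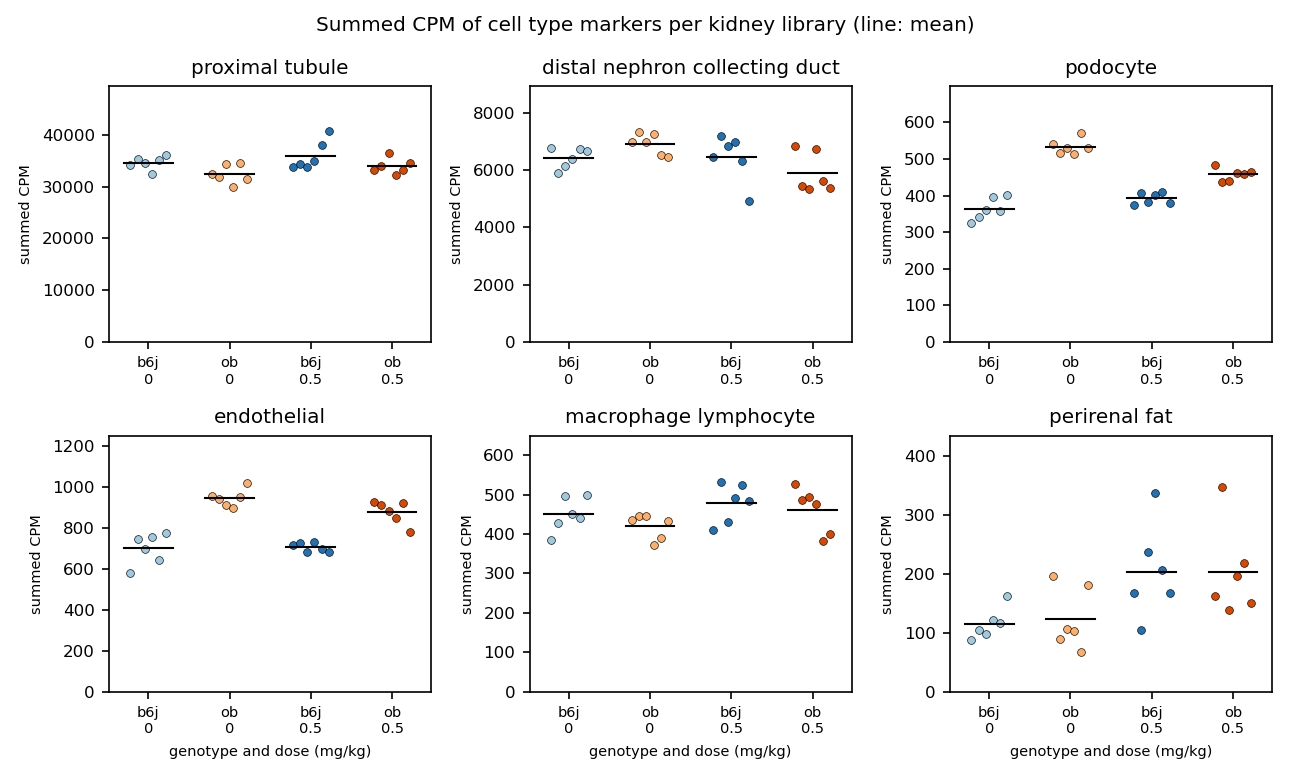
Summed CPM of 6 marker lists in each library of the 4 groups, with lines at the means and axes from 0. At 0.5 mg/kg podocyte and endothelial sums of ob libraries lie above all b6j libraries, while the other 4 lists overlap.

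The comparison of untreated kidneys of the same genotypes shows how much of the low-dose difference was there without cadmium. It shares no library with the comparison at 0.5 mg/kg. In untreated kidneys 4838 genes (26.6%) differed, 2225 higher (12.2%) and 2613 lower (14.4%) in ob. Both comparisons called 2223 genes in the same direction, 62.9% of the genes called at 0.5 mg/kg and 45.9% of those called untreated. Of these, 1345 were lower and 878 higher in ob. A further 1278 genes were called at 0.5 mg/kg only, 756 higher and 522 lower, and for 91 of them the change in the difference itself was called. For the other genes of the 1278 a change with cadmium was not shown. Across the 18180 genes the log2 differences of the comparisons had a Pearson correlation of 0.48, which is a description, since genes are not independent replicates.

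The genotype difference itself changed with the low dose for 329 genes (1.81%), by an interaction test in edgeR: 266 shifted toward ob (1.46%) and 63 toward b6j (0.347%). Without b6j replicate 6 at 0.5 mg/kg 877 genes passed, 708 and 169, and the 329 were all among them. Scaling by library size alone reversed the balance, to 171 and 269 of 440, and moved the median of all genes to -0.10, so the balance of directions depends on the scaling. Of the 329, 196 were also called at 0.5 mg/kg. In 48 of the 196 the difference kept its sign and was larger at 0.5 mg/kg than untreated, and in 51 it kept its sign and was smaller. In the others the sign of the estimate changed, whether or not the untreated difference was called. Opposite directions called in both comparisons were found for 34 genes. Among genes of at least 5 CPM that were also called at 0.5 mg/kg, the largest upward shifts were in Ugt2b35 (4.57 ± 0.74), Gstm3 (3.94 ± 0.50), Gm3776, Gsta1, Mas1 (3.53 ± 0.38), Hmox1, Gm44785 and Ugt2b5. The Gm3776 shift of 3.71 was not called without untreated b6j replicate 4 (1.63, adjusted p = 0.362) or with limma-voom (adjusted p = 0.631).

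Genes whose gap narrowed with cadmium while ob stayed higher included Kynu, Rdh16f2 and Hao2. Kynureninase Kynu, an enzyme of tryptophan breakdown, read 19, 26.5 and 34.7 CPM in ob and 4.41, 6.96 and 9.8 CPM in b6j (2.00 ± 0.19), against 33.4 and 2.88 CPM untreated, a narrowing of -1.54 ± 0.27 (adjusted p = 0.00199, edgeR). The drug pumps Abcb1b (-1.07 ± 0.24) and Abcb1a (-0.85 ± 0.21), Rdh16f2 (-1.05 ± 0.21), the protease inhibitor Serpina1a (-1.01 ± 0.22) and the hydroxyacid oxidase Hao2 (-0.92 ± 0.18) narrowed as well. The Abcb1a call ended under 8 of the 24 single-library omissions. The Serpina1a difference at 0.5 mg/kg was not called without ob replicate 4 (0.39, adjusted p = 0.062). Hao2 was at 471 ± 102 against 261 ± 36.6 CPM with cadmium and at 574 against 168 CPM without.

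Opposite directions were called for 34 genes, 30 of them lower in ob kidneys without cadmium and higher with it. Without b6j replicate 6 at 0.5 mg/kg there were 60. The 5 with the smallest larger of both adjusted p were Hmox1, Mas1, Cdhr2, Ly6f and Psap. Mas1, the receptor of angiotensin 1-7, read 10.7, 12.3 and 15.2 CPM in ob and 3.66, 4.57 and 7.35 CPM in b6j at 0.5 mg/kg (1.36 ± 0.23, adjusted p = 9.44e-05, edgeR). Untreated it was at 0.46 and 2.1 CPM (-2.18, adjusted p = 2.67e-06). The brush border cadherin Cdhr2 was at 110 ± 7.44 against 72.4 ± 6.82 CPM with cadmium (0.60 ± 0.08) and at 39.2 against 54.4 CPM without (-0.47). Ly6f was at 4.28 ± 1.03 against 1.35 ± 0.43 CPM with cadmium (1.67 ± 0.30) and at 0.454 against 1.43 CPM without (-1.65). Gstm1, Gdf15, Txnrd1 and the autophagy receptor Sqstm1 are also among the 34, the last 2 named after their values were seen. Exon bases shared with other genes also touch genes named above, at 30.7% for Cdkn1c, 18.8% for Spp1, 18.1% for Ces1a, 12.2% for Bax, 11.8% for Nphs1, 11.7% for Slc34a1, 11.5% for Cish and 10.1% for Abcb1a.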

How the data were processed

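Kidney RNA was sequenced in 36 libraries, and 1 file of read counts per gene was deposited for each. Per the file headers, the deposited counts were made with featureCounts 1.4.6-p2. The submitters' processing notes name bcl2fastq, Trimmomatic, FastQC, STAR and GRCm38. A joined table with 36 columns of per-sample values was not used. Groups came from the sample titles. Genes with enough reads (filterByExpr, 18180 of 55536) were scaled by TMM over 36 libraries, and CPM was computed from the counts and the library sizes times the TMM factors. The quasi-likelihood test of edgeR 4.0.16 (R 4.3.3) was fitted on 24 libraries, the ob and b6j groups at 0.5 mg/kg and untreated, with 1 mean per group and Benjamini-Hochberg adjustment over all genes tested at 0.05. SE is the log2 difference divided by the root of F. The fitting code was tested on simulated data. DESeq2 1.42.0, limma 3.58.1, other scalings, filters and sample sets were alternatives. The 12 libraries compared held 28693083 to 36710100 counted reads.

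Members and gene lists were chosen with earlier results of these data known. Genes named were Lep, Lepr, Mt1, Mt2, Hmox1, Havcr1 and Lcn2, the 10 largest differences in each direction and the 8 largest changes of the difference in each direction among called genes of at least 5 CPM, up to 5 genes of smallest p per list, 5 called in opposite directions, and the 5 called genes of highest CPM in each direction. Other list members given with a log2 difference alone were named after their values were seen. A few genes that the rule names are not reported here. Within-group library pairs differed by more than sampling noise (chi-square per degree of freedom at least 9.53). Promoters are from RefSeq on GRCm38.p6, with a window for 88 of 116 named genes.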

Additional observations from a re-analysis of the deposited data

Results flagged for a closer look

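In 17 of 224 sets of 6 libraries, 1 per named gene and group at 0.5 mg/kg, the highest or lowest library stood apart from the other 5 by Dixon's 95% criterion, which chance meets in about 1 in 20 sets. In b6j replicate 2 it was Ugt2b35 (highest, 1.79 CPM). In b6j replicate 5 these were Havcr1 (highest, 48.5 CPM), Ugt1a2 (highest, 9.27 CPM), Gsta1 (highest, 7.59 CPM), Gm3776 (highest, 8.23 CPM). In b6j replicate 6 these were Gstm3 (highest, 2.16 CPM), Cyp4b1 (highest, 7140 CPM), Kap (highest, 27500 CPM), Acsm2 (highest, 6000 CPM). In ob replicate 1 it was Bax (highest, 36 CPM). In ob replicate 2 these were Lep (highest, 14.1 CPM), Vim (highest, 50.1 CPM). In ob replicate 4 these were Mt1 (lowest, 2020 CPM), Slc7a12 (highest, 109 CPM). In ob replicate 6 these were Ugt2b34 (highest, 271 CPM), Ccng1 (highest, 368 CPM), Ptpro (highest, 16.8 CPM).

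The genotype difference at 0.5 mg/kg differed from that without cadmium for 46 named genes by the interaction test of edgeR. Log2 differences shifted upward in ob by 1 or more were those of Havcr1 (4.92), Ugt2b35 (4.57), Gstm3 (3.94), Gm3776 (3.71), Gsta1 (3.61), Mas1 (3.53), Ly6f (3.32), Hmox1 (3.27), Gm44785 (2.13), Eda2r (2.05), Ugt2b5 (2.02), Gdf15 (1.98), Cbr3 (1.82), Gstm1 (1.80), Ugt2b34 (1.43), Cyp4a12a (1.25), Mt1 (1.10), Cdhr2 (1.07), Ces2e (1.04). Smaller upward shifts were those of Gsta4 (0.98), Ephx1 (0.95), Odc1 (0.89), Psap (0.84), Blvrb (0.76), Cbr1 (0.73), Trp53inp1 (0.73), Ccng1 (0.69), Ctsd (0.64), Bax (0.61), mt-Nd1 (0.51), Ctsz (0.49), Mvd (0.48), Ctsl (0.38), Slc48a1 (0.37), Gpx1 (0.36), Npc2 (0.35). Downward shifts were those of Slc7a12 (-1.66), Prlr (-1.59), Kynu (-1.54), Abcb1b (-1.07), Rdh16f2 (-1.05), Serpina1a (-1.01), Hao2 (-0.92), Abcb1a (-0.85), Nphs1 (-0.64), Vim (-0.57). The Havcr1 call ended under 7 of the 24 single-library omissions, with limma-voom (2.58, adjusted p = 0.28) and with the replicate block (3.60, adjusted p = 0.113), and the shift was 2.32 without untreated b6j replicate 4 (adjusted p = 0.055), in which Havcr1 was at 180.5 CPM. The Cyp4a12a call ended under 14 omissions, with the replicate block (adjusted p = 0.0583) and with library size alone (adjusted p = 0.0527). Single omissions also ended the calls of Prlr (14), Abcb1a (8), Gpx1 (4), Slc7a12 (3), Gsta1 (1) and Gm3776 (1).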

How the results depend on the processing

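Leaving out 1 library at a time gave 3045 to 3698 genes at 0.5 mg/kg, 4229 to 5268 untreated, 223 to 877 for the change of the difference, 1943 to 2256 called in the same direction and 26 to 60 in opposite directions. The highest of each came without b6j replicate 6 at 0.5 mg/kg. With all 36 libraries in 1 fit the counts were 1753, 2823, 70, 1041 and 14, with a common dispersion of 0.0489 against 0.0219. The same fit without ob replicate 5 at 2 mg/kg gave 3457, 4765, 281, 2138 and 27, so the fall came with that library. For the change of the difference DESeq2 called 578 genes and limma-voom with sample weights 880, and the latter called 66 in opposite directions. With no low-count filter 3011 genes were called at 0.5 mg/kg, with a stricter one 3573, and with only the groups compared 2977. Scaling by library size alone gave 4827 higher and 1359 lower untreated. Of 116 named genes, 19 crossed the threshold at 0.5 mg/kg with 36 libraries, 2 with limma-voom and none with DESeq2. Of 47 named genes with a called change of the difference, 28 lost the call with 36 libraries, 4 with 35, 3 with limma-voom, 2 with library size alone and none with DESeq2. No direction of a named gene reversed in either comparison. The causes of the higher counts were not tested. Genes near 0.1 CPM are limited by depth.

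Replicate numbers did not pair the libraries: same-numbered libraries had a median correlation of 0.02 against -0.002 for others, and 5 of 36 pairs exceeded 0.1. With the replicate number as a block, 3521 genes were called at 0.5 mg/kg, 4774 untreated and 320 for the change of the difference.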
